A study of Mus musculus with 2 samples.

Results

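Nr3c1, the gene of the glucocorticoid receptor, and 8 genes known as targets of that receptor were followed in denervated mouse muscle. The targets were Fkbp5, Tsc22d3, Ddit4, Sgk1, Klf15, Klf9, Cebpb and Cebpd. Probes were taken where the array design's gene name, or the current symbol of the probe's accession, was one of these 9 symbols, which gave 19 probes for 9 genes out of 21943 gene symbols on the array. A further probe that the design names Sgk, on an unclassified cDNA clone, fell outside this rule and was not used. Total RNA came from gastrocnemius, a mixed calf muscle, of male C57BL/6 mice aged 9 weeks. The denervated group had lost the muscle's nerve supply at the age of 7 weeks, 14 days before sampling, and the control group is called sham control in one label and only control in another. RNA of 6 mice was pooled in each group. Each group thus came down to 1 pool and 1 array, both on the same slide, so no value has a replicate and no test was possible. Every difference describes these 2 pools.

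The glucocorticoid receptor is a nuclear receptor that waits in the cytosol in a complex with the chaperone Hsp90, its cochaperone p23 (Ptges3) and an immunophilin such as FKBP51 (Fkbp5) or FKBP52 (Fkbp4). Hormone binding releases it into the nucleus, where it binds palindromic glucocorticoid response elements and raises or represses transcription. In skeletal muscle, raised glucocorticoids are a known cause of atrophy, in part through Klf15, the mTORC1 inhibitor Ddit4 (REDD1) and the ubiquitin ligases Trim63 and Fbxo32. All of the 8 targets also answer to other signals.

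Promoter windows of 300 bases, from 250 before to 50 after a RefSeq start site (GRCm38.p6), were matched by symbol for 7 of the 9 genes and gave 14 windows, 6 of them for Sgk1 and 3 for Tsc22d3. These were searched on both strands for the textbook sites of the receptor and of other factors. The full palindrome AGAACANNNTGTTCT was in 3 of all 32851 windows (0.00913%) and, among the 14 windows here, in 1 of Sgk1. A looser form, GNACANNNTGTNC, which overlaps the palindrome, was in 0.475% of all windows and here in the same Sgk1 window alone. That stretch is shown because it holds the palindrome (capitals), on the plus strand at chr10:21993640-21993739:
Sgk1: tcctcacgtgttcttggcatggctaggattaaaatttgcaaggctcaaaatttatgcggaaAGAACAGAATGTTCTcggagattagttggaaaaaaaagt
The palindrome begins 189 bases before the start site of its own window and 965 bases before the most downstream of the 6 Sgk1 starts.

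A single arm of the palindrome, AGAACA, was in 19% of all windows. Here it was in 4 of the 14, all of Sgk1 or Tsc22d3. In Tsc22d3 it was only in the most upstream of the 3 windows, beginning 185 bases before that window's start site. That start lies 57854 bases upstream of the most downstream Tsc22d3 start. The stretch is shown because that gene encodes a classic receptor target (capitals, read on the gene's minus strand, chrX:140600663-140600742):
Tsc22d3: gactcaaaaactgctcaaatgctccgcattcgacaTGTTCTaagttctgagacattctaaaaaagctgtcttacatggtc
The cAMP response element core TGACG was in 20.8% of all windows and here in 5 of the 14, each of a different gene. Cebpb carried it 3 times, and its last 150 bases before the start are shown because Cebpb was the 1 gene of the 9 past 2-fold (2 of the 3 matches in capitals, chr2:167688765-167688914, plus strand):
Cebpb: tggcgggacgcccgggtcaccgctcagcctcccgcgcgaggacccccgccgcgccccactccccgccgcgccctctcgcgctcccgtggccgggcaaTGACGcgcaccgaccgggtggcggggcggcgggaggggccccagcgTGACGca
Klf9 carried TGACG and also a forkhead site, GTAAACA (3.65% of all windows and 1 of the 14), both in capitals in its last 150 bases before the start (chr19:23141076-23141225, plus strand). It is shown as a gene that was lower in the denervated pool:
Klf9: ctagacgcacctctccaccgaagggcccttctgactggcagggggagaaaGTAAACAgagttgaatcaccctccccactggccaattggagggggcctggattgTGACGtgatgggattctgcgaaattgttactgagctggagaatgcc
The E-box CACGTG (7.15% of all windows) was in 3 of the 14, those of Klf15 and Fkbp5 and 1 of Sgk1, with 3 matches in Klf15, where the match nearest the start overlaps a TGACG match. A C/EBP site, TTGCNNAA (10.8%), was in 1 of the 14, a window of Sgk1. A match is a run of letters, not a measured binding site.

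Signals are given as multiples of the array's 75th percentile, which was an intensity of 788 for the control pool and 1063 for the denervated pool. A log2 difference is the denervated value minus the control value. The number behind ± is a purely technical error, from the scanner software's spot errors on the 2 arrays (median 0.20). Among 173 probes printed in at least 8 usable copies, the SD of the difference over copies was 0.06. All 19 probes were well above background on both arrays and none was saturated. Among the 15631 genes with a measured probe, denervated signal was 2-fold or more above control for 6.93% and 2-fold or more below it for 8.59%, and the median difference was -0.11. With spike-in scaling every difference was higher by 0.40 and with no scaling by 0.43, so the direction of a difference between -0.43 and 0 rests on the scaling. A gene's place among all genes does not depend on such a shift. The tissue label was checked against 10 markers of muscle fibres, which were all measured, with fast troponin Tnnc2 at 854 in control and 603 in denervated muscle and creatine kinase Ckm at 390 and 237. In bulk RNA, fewer cells of a type and less RNA per cell cannot be told apart.

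Among the 9 genes, Cebpb alone was past 2-fold, and it was higher in the denervated pool (1 of 9 genes, against 6.93% of all measured genes). No gene of the 9 was 2-fold lower, against 8.59% of all. Nr3c1, Ddit4 and Klf9 were between 1.66-fold and 1.85-fold lower, Sgk1 and Tsc22d3 were 1.23-fold and 1.41-fold higher, and Fkbp5, Klf15 and Cebpd lay below 0 but above 0 with spike-in scaling or none. The median over the 9 genes was -0.25, near the -0.11 of all genes, and 0.15 with spike-in scaling, where that of all genes was 0.29. The targets thus lay on both sides of 0, with 3 of the 9 genes above 0, or 6 with spike-in scaling.

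**Figure D1:**
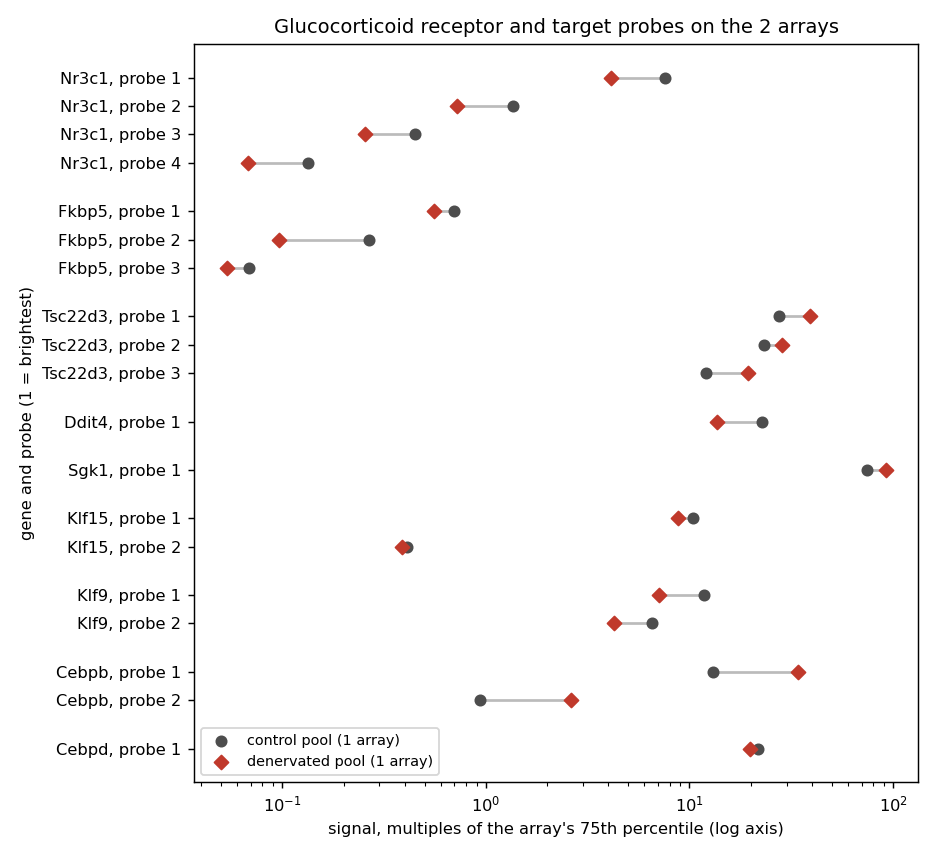
Signal of each of the 19 probes in the control pool (grey circles) and the denervated pool (red diamonds), 1 array each, as multiples of the array's 75th percentile on a log axis; probes are numbered by brightness within a gene. Both Cebpb probes lie to the right in the denervated pool (12.98 to 34.08 for the brighter), and all 4 Nr3c1 probes lie to the left; no error bar is drawn because each point is 1 spot.

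The receptor gene was lower by every probe. Its brightest probe, on a cDNA clone and the most 3′ of the 4, gave 7.60 in control and 4.11 in denervated muscle. The probes on transcript NM_008173 gave 1.37 and 0.72, then 0.45 and 0.25, then 0.13 and 0.068. Each of the 4 was thus lower in the denervated pool, whatever its brightness. The log2 differences were -0.89 ± 0.20, -0.92 ± 0.20, -0.82 ± 0.21 and -0.98 ± 0.23, with an SD over probes of 0.07, from probes spread over 3564 bases of the gene on chromosome 18. Their range of 0.16 was narrow: of 497 genes with at least 4 measured probes, 3.82% had a smaller range, and the median range was 0.67. By its brightest probe Nr3c1 was 1.85-fold lower, above 11.4% of measured genes, and it stayed below 0 with spike-in scaling (-0.48) and unscaled (-0.45). Its nearest relative, the gene Nr3c2 of the mineralocorticoid receptor, which also binds glucocorticoids, was dim, at 0.052 in control and 0.039 in denervated muscle. Its difference from a single probe was -0.41 ± 0.28. That value was -0.0067 with spike-in scaling and lay above 0 without scaling.

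Fkbp5 encodes FKBP51, the immunophilin that lowers the receptor's affinity for hormone and is induced by the receptor in a feedback loop. Its probes did not give 1 value. The brightest (chr17:28165639-28165698, mm8) read 0.70 in control and 0.56 in denervated muscle, a difference of -0.34 ± 0.20. The next (chr17:28127522-28127581) read 0.27 and 0.096, a difference of -1.47 ± 0.21, or 2.77-fold lower. The dimmest (chr17:28128237-28128296) read 0.069 and 0.053, a difference of -0.37 ± 0.24. The brightest and the dimmest probe thus gave like values although 37402 bases apart, while the dimmest and the remaining probe, 715 bases apart, differed by 1.10 on the log2 scale. Among 1812 genes with at least 3 measured probes, 14.7% had a wider range than the 1.13 of Fkbp5. With spike-in scaling the 3 probes stood at 0.066, -1.07 and 0.033, so a lower value was kept by the second probe alone.

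Tsc22d3 encodes GILZ, a leucine zipper protein that carries part of the anti-inflammatory action of glucocorticoids. Its brightest probe (chrX:135886218-135886277, mm8) read 27.6 in control and 38.9 in denervated muscle. The other probes read 23.2 and 28.5, and 12.0 and 19.4. All 3 were higher in the denervated pool, by 0.49 ± 0.20, 0.30 ± 0.20 and 0.69 ± 0.20, and none reached 2-fold. With spike-in scaling the dimmest reached 1.10, past 2-fold. Its relatives Tsc22d1, Tsc22d2 and Tsc22d4, of the same domain family, were at -0.057, -0.19 and -0.34, all above 0 with spike-in scaling, and Tsc22d2 had another probe at 0.097.

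Ddit4 encodes REDD1, a stress protein that holds back the growth kinase complex mTORC1 and is induced by glucocorticoids in muscle. Its single probe (chr10:59345095-59345154, mm8) read 22.7 in control and 13.6 in denervated muscle. That is 1.66-fold lower (-0.74 ± 0.20), and still below 0 with spike-in scaling (-0.33). Its relative Ddit4l was at -0.75 by its brightest probe, with others down to -1.08.

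Sgk1, the serum and glucocorticoid regulated kinase, acts on ion channels and on FoxO factors, and its promoter stretch is shown above. Its single probe (chr10:21689000-21689059, mm8) read 74.5 in control and 91.8 in denervated muscle. The difference of 0.30 ± 0.20, or 1.23-fold, was 1 of the smaller ones among the 9 genes, and it was 0.70 with spike-in scaling. Its relative Sgk3 was at 0.47 ± 0.21, and Sgk2 was not well above background on either array. Nedd4l, the ubiquitin ligase that SGK1 phosphorylates, was 2.12-fold lower (-1.08 ± 0.21), although not past 2-fold with spike-in scaling.

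**Figure D2:**
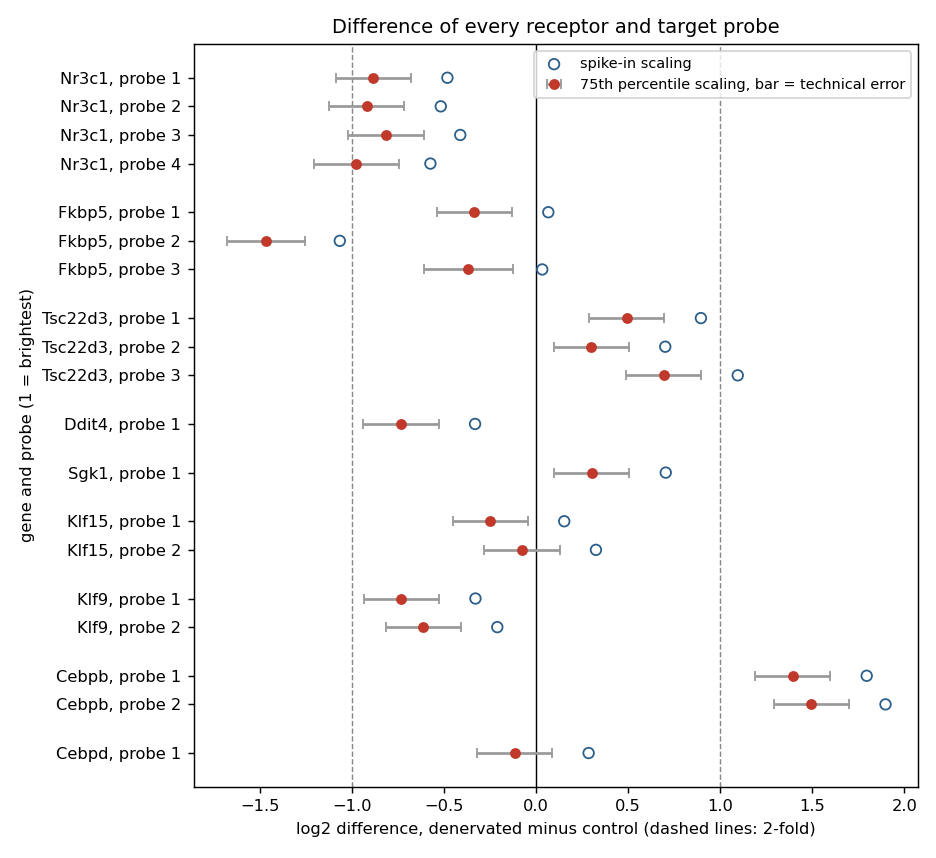
Log2 difference (denervated minus control) of each of the 19 probes with 75th percentile scaling (red points, bars are ± the technical error) and with spike-in scaling (open blue circles); dashed lines mark 2-fold. Both Cebpb probes lie past 2-fold to the right, the 4 Nr3c1 probes lie between -0.98 and -0.82, and of the 3 Fkbp5 probes the second stands apart at -1.47; the open circles of Klf15, Cebpd and 2 Fkbp5 probes lie above 0.

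Klf15 and Klf9 are Krüppel-like zinc-finger repressors and activators that glucocorticoids induce in many tissues. Klf15 promotes amino acid breakdown and lipid use in muscle. Its brighter probe (chr6:90440517-90440576, mm8) read 10.4 in control and 8.77 in denervated muscle. The other probe read 0.41 and 0.39. The differences of -0.25 ± 0.20 and -0.078 ± 0.20 were small, and both lay above 0 with spike-in scaling (0.15 and 0.32). Klf9 was lower by both probes. The brighter (chr19:23232745-23232804, mm8) read 11.7 and 7.06, and the other read 6.55 and 4.28. The differences were -0.73 ± 0.20 and -0.61 ± 0.20, or -0.33 and -0.21 with spike-in scaling. Klf9 and Ddit4 stood at nearly the same place, each above 15.9% of measured genes.

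Cebpb and Cebpd encode the C/EBP transcription factors beta and delta, which share a bZIP domain, switch on acute-phase genes and are both induced by glucocorticoids and by cytokines. Their values were not alike. The brighter Cebpb probe (chr2:167381552-167381610, mm8) read 13.0 in control and 34.1 in denervated muscle. The other, 538 bases away, read 0.93 and 2.63. Both probes were higher in the denervated pool, 2.63-fold by the brighter (1.39 ± 0.20) and 2.82-fold by the other. By the brighter, Cebpb lay above 96.3% of measured genes. The single Cebpd probe (chr16:15801944-15802003, mm8) read 21.6 and 19.9. Its difference of -0.12 ± 0.20 was smaller than its technical error, and it was 0.28 with spike-in scaling. Of the other C/EBP genes, Ddit3 (CHOP) was at -1.05 ± 0.20, Cebpg at -0.93 ± 0.20 and Cebpa at 0.14, with another probe at -0.23. Cebpz was at 0.41 by its brightest probe, with others down to -0.11. Ddit3 did not pass 2-fold with spike-in scaling.

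Macrophages, which also express Cebpb, had all 12 of their markers above 0 and 11 of them past 2-fold in denervated muscle (6.93% of all genes). The summed signal of the 12 was 20.8 in control and 63.1 in denervated muscle, with lysozyme Lyz2 at 15.9 and 44.4, Cd68 at 0.15 and 1.78, and galectin-3 (Lgals3) 5.90-fold higher. None of the 12 was below the background limit on either array. Fat cells also express Cebpd and Klf15, and their 7 markers summed to 104 and 76.3. Most of these sums was Fabp4, at 90.4 and 67.7, while Adipoq read 1.03 and 0.75. The sums thus mainly follow 1 gene and say little about the other markers. All 7 lay below 0 with 75th percentile and with spike-in scaling, where Fabp4 stood at -0.015. The part of either cell type in the results was not tested.

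**Figure D3:**
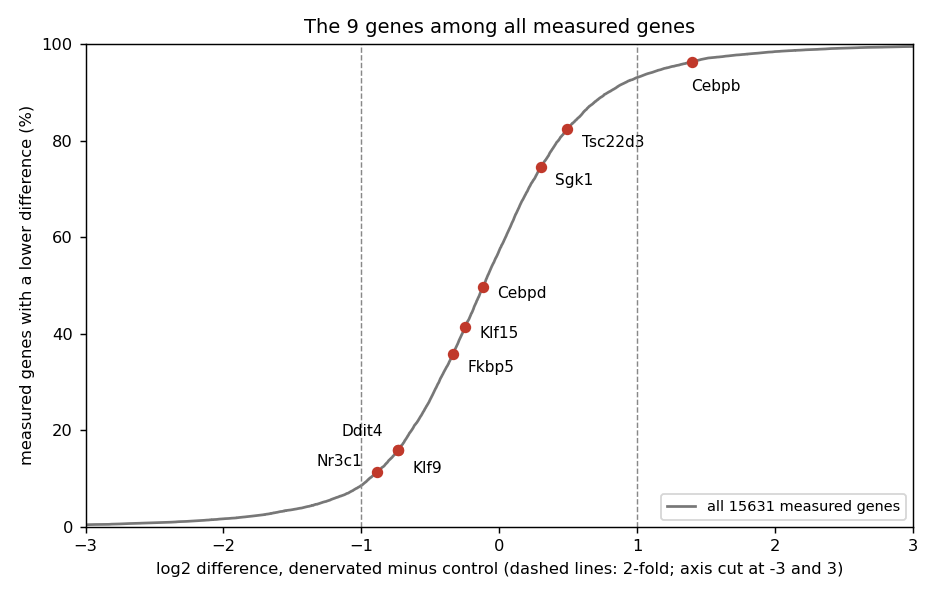
Share of the 15631 measured genes with a lower difference (vertical axis, %) against the log2 difference (horizontal axis, shown from -3 to 3); red points are the 9 genes and dashed lines mark 2-fold. Nr3c1 lies at 11.4%, Klf9 and Ddit4 at 15.9%, Cebpd at 49.7% and Cebpb at 96.3%; places along the curve do not depend on spike-in scaling, although the side of 0 of Fkbp5, Klf15 and Cebpd does.

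The receptor's chaperones and coregulators were all measured, 20 of 20. Of these, 1 passed 2-fold upward (6.93% of all genes) and none downward (8.59%), with a median of 0.34. The cytosolic chaperone Hsp90ab1 stood just short of 2-fold at 0.99 ± 0.20, with its second probe at 1.39, and the cochaperone Ptges3 at 0.97 ± 0.20. The gene past 2-fold, the Hsp70 relative Hspa4 (1.31 ± 0.20), had another probe at -0.57. With spike-in scaling 6 of those 20 were at least 2-fold higher, against 14.6% of all genes. Fkbp4, the counterpart of Fkbp5 in the complex, was at -0.10, and of the 13 measured relatives in the FKBP family only Fkbp3 passed 2-fold, and it was lower (-1.32 ± 0.20). With spike-in scaling 2 were 2-fold higher and none lower. Among enzymes and receptors of steroid hormones, 7 of 9 were measured and none passed 2-fold. Hsd11b1, which regenerates active glucocorticoid inside cells, was 1.84-fold higher (0.88 ± 0.20) and past 2-fold with spike-in scaling (1.28). The estrogen receptor gene Esr1 was 1.71-fold lower (-0.77 ± 0.20, or -0.37 with spike-in scaling). Hsd11b2, which inactivates the hormone, was detected on the control array alone, by at least 1.57-fold over the denervated array. Its control signal of 0.026 was near the lowest detected on that array (0.018), and spike-in scaling lowers the bound.

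Other genes that glucocorticoids are known to induce covered a wider range than the 8 targets. Of 24 measured, 10 were at least 2-fold higher (6.93% of all genes) and 2 were 2-fold lower (8.59%), with a median of 0.50. With spike-in scaling 10 were higher and 1 lower (median 0.91), against 14.6% and 4.13% of all genes. The cell-cycle inhibitor Cdkn1a was 25.9-fold higher (4.69 ± 0.20) and the metallothioneins Mt2 and Mt1 were 19.6-fold and 7.13-fold higher. The muscle ubiquitin ligases Trim63 and Fbxo32 were at 2.02 and 1.53. The 2 lower genes were the phosphatase gene Dusp1 (-1.55) and Txnip (-1.23), and the classic induced genes Per1 and Pdk4 were at 0.56 and 0.23. Cdkn1a, Mt1 and Mt2 were named because their differences were the largest of this list. The other genes named here were picked after their values were seen. The list itself was chosen with earlier results of these data known, which limits what its counts can show. Many genes of this list also have inducers other than glucocorticoids.

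Of 9 amino acid and lipid genes linked to Klf15, 5 lay 2-fold or more below control (8.59% of all genes) and none 2-fold above it. Their median was -1.27, or -0.86 with 4 lower under spike-in scaling. A part of Klf15 in these values was not tested. The carnitine transferase Cpt1b was 4.14-fold lower, the transaminase Gpt2 3.99-fold and the fatty acid carrier Fabp3 3.40-fold, while Bcat2, the branched-chain transaminase that Klf15 activates, was at 0.12, with probes from -0.11 to 0.15. Among genes of the mTORC1 pathway, which Ddit4 holds back, 3 of 15 passed 2-fold upward (6.93% of all genes) and none downward (median 0.033). These were the translation repressor Eif4ebp1 (1.80 ± 0.20), Akt1 (1.61 ± 0.20) and Mtor (1.04 ± 0.20). Of 7 measured SGK relatives and partners, Nedd4l was the 1 past 2-fold, and it was lower (8.59% of all genes). Of the 14 measured other Krüppel-like factors, 4 were at least 2-fold higher (6.93% of all genes) and none lower. These were Klf10 at 1.44 ± 0.20, Klf5 at 1.42 ± 0.20, the very dim Klf1 at 1.51 ± 0.36 and Klf16 at 1.02 ± 0.21. Klf16 was also dim, at 0.15 in control. Klf13 and Klf2 were at -0.87 and -0.48 by their brightest probes, but each had another past 2-fold, at -2.30 and -1.06.

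Acute-phase genes, which C/EBP factors switch on, had 5 of 10 measured genes at least 2-fold higher and none lower (median 1.38). Only 1 was higher when probes under 4 times the lowest detected signal were left out. That gene was Socs3, with a control signal of 0.75, while Orm1, Orm2, Saa2 and Serpina3n dropped out. The acid glycoproteins Orm2 and Orm1 were 105.7-fold and 25.8-fold higher, and the protease inhibitor Serpina3n 16.8-fold, each from a dim control signal between 0.053 and 0.057, and as near relatives Orm1 and Orm2 may share signal between probes. Orm3 and Saa3 were above background in the denervated pool only, at least 35.3-fold and 5.52-fold higher there. Of 13 inflammatory genes that glucocorticoids repress, 7 were measured, all dim or moderate. The chemokine gene Ccl2 was 3.83-fold higher (1.94 ± 0.21), Cxcl1 was 2.37-fold lower (-1.24 ± 0.34, or -0.84 and not past 2-fold with spike-in scaling) and Ifng stood at 0.84 ± 0.59. Ptgs2 was above background in the denervated pool only, at least 3.04-fold higher there, and Tnf, Il1a, Il1b, Nos2 and Csf2 were not well above background on either array.

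**Figure D4:**
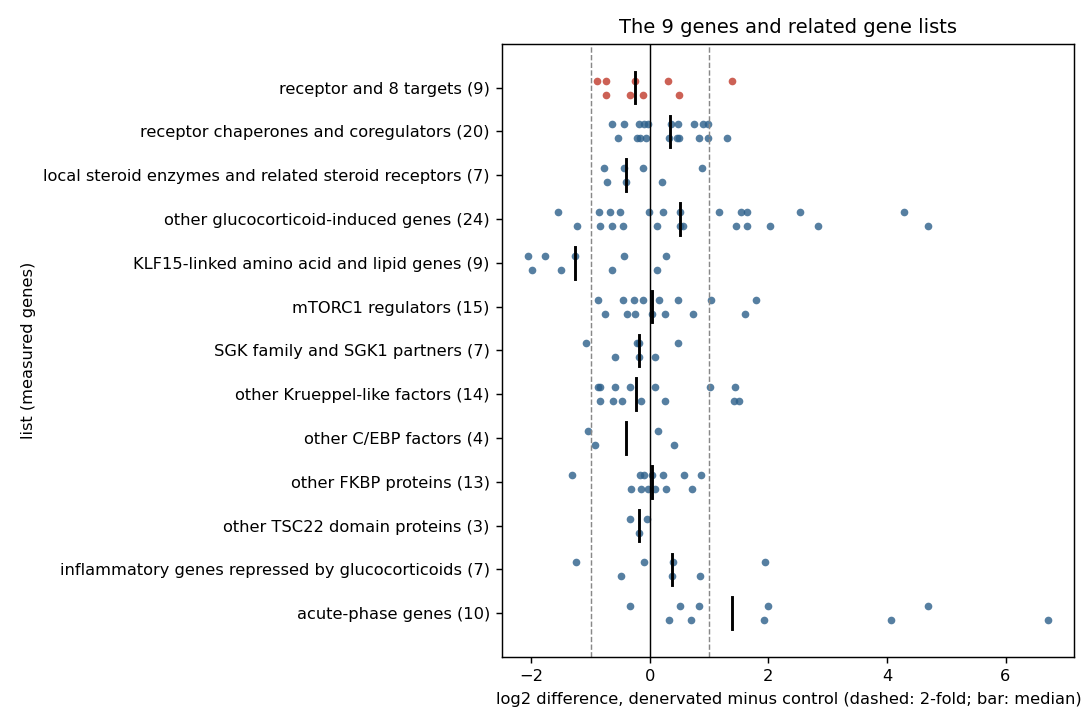
Log2 difference (denervated minus control) of each measured gene in the receptor and target list (red) and in 12 related lists (blue), with black bars for the median and dashed lines at 2-fold; the number of measured genes is in brackets. The 9 genes lie between -0.89 and 1.39, the KLF15-linked genes have the lowest median (-1.27) and the acute-phase genes the highest (1.38); spike-in scaling moves every point up by 0.40.

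Cebpb was at least 2-fold higher under all 12 alternatives run, between 1.39 and 1.83. Nr3c1, Ddit4 and Klf9 lay below 0, and Tsc22d3 and Sgk1 above 0, under the same 12. Fkbp5, Klf15 and Cebpd lay above 0 under spike-in scaling and without scaling, and below 0 under the other 10. The counts of 1 higher and 0 lower among the 9 genes also held with spike-in scaling, where 14.6% of all genes were higher and 4.13% lower, and without scaling (15.4% and 3.89%). They held as well with the mean of a gene's probes (6.49% and 8.19% of all genes) and with its least changed probe (5.78% and 7.44%). At 3-fold, none of the 9 genes was higher or lower, against 2.72% and 3.15% of all genes. At a threshold of 1.5-fold, 3 of the 9 genes were lower (22.2% of all genes) and 1 was higher (15.0%).

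**Figure D5:**
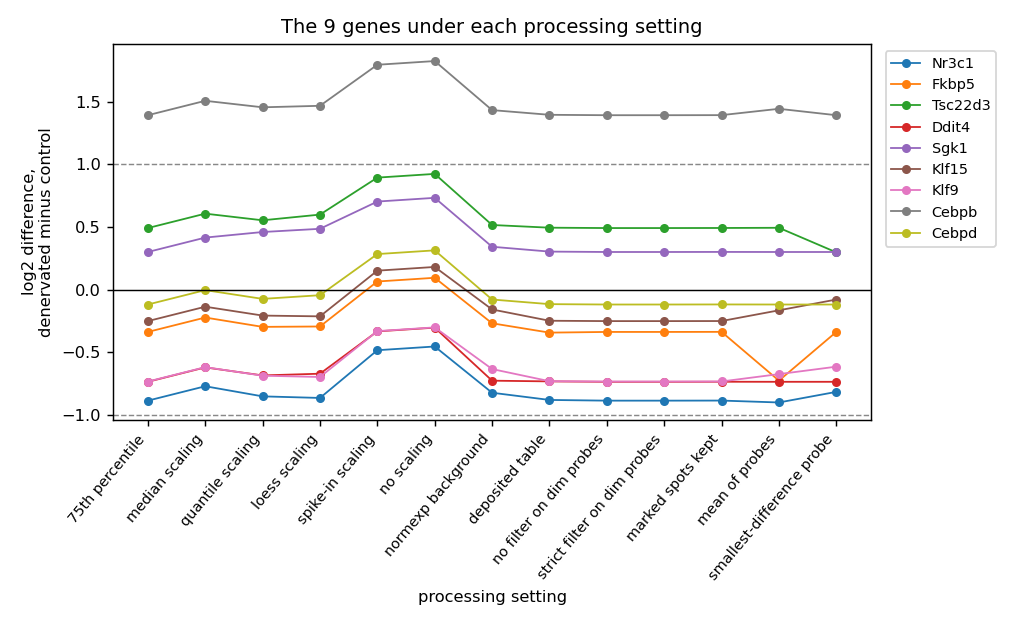
Log2 difference (denervated minus control, vertical axis) of the 9 genes under the 75th percentile setting and 12 alternatives (horizontal axis), each line 1 gene; dashed lines mark 2-fold. Spike-in scaling and no scaling lift every gene by 0.40 and 0.43, which takes Fkbp5, Klf15 and Cebpd above 0, and averaging probes lowers Fkbp5 to -0.73.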

How the data were processed

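Each group was 1 pool of RNA on 1 array, so there is no replicate, no test and no p-value, and the number of arrays limits precision. The deposited scanner files hold spot intensity values made with Agilent Feature Extraction 9.5.3.1, per the file headers: background-subtracted and detrended within the array, not scaled between arrays. The authors also deposited a table of whole numbers, treated here as a score. Compared with the scanner intensities it proved linear: each array was scaled to put its 75th percentile at 100 and rounded (coefficient of variation of the ratio at most 0.0151%). Its column medians were 10 and 9, and it was used in 1 alternative.

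Spots marked as outliers were left out (87 and 81), replicated spots were averaged on the log2 scale, and the array's 75th percentile over 41174 probes was subtracted. A probe was measured when well above background on both arrays and not saturated, and a gene took its brightest measured probe. Where 1 array alone detected a gene, a bound was formed by dividing its signal by the lowest detected signal on the other array, or by the dim signal itself where that was larger. Of the probes, 23374 were named through accessions in a RefSeq table (GRCm38.p6). Probe positions are those of the files (mm8); exon structure was not used here. Normexp background correction used limma 3.58.1 in R 4.3.3, and the rest Python 3.11.15. The calculation was tested on simulated data.

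The genes, the 12 related lists and the 9 cell type lists were chosen with earlier results of these data known. Named genes are the 9, the 3 largest differences in each related list, and the brightest and largest in each cell type list; others are named after their values were seen. Some genes that this rule names are not reported here. Genes of the lists without a named probe were not analysed here.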

Additional observations from a re-analysis of the deposited data

How the results depend on the processing

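No paired analysis was possible because each group has 1 array, and for the same reason no array could be left out. Of the 12 alternatives, scaling was the choice that moved the 9 genes. With spike-in scaling Nr3c1 stood at -0.48, Fkbp5 at 0.066, Tsc22d3 at 0.90, Ddit4 at -0.33, Sgk1 at 0.70, Klf15 at 0.15, Klf9 at -0.33, Cebpb at 1.80 and Cebpd at 0.28, with a median of 0.15. Without scaling they stood at -0.45, 0.10, 0.92, -0.30, 0.73, 0.18, -0.30, 1.83 and 0.31 in the same order, with a median of 0.18. Both settings add a constant to every gene, 0.40 and 0.43. The mean over probes gave -0.73 for Fkbp5, through its second probe. At a 3-fold threshold 0 of the 9 genes were higher, and at 1.5-fold 3 were lower. Of 131 measured genes in the related lists together, 24 were at least 2-fold higher and 11 lower, against 6.93% and 8.59% of all measured genes. Without scaling 37 were higher (15.4% of all genes). With spike-in scaling 5 were lower (4.13% of all genes), and likewise without scaling (3.89%). The other values of the 9 genes, their counts and their median moved by less than the technical error or by less than 1.5 times. The spread between mice was not measured, and the dimmest probes of Fkbp5 and Nr3c1 have the largest technical errors among the 19 probes (0.24 and 0.23).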

Other observations

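Markers of other cells in the muscle gave the following values beside those of the receptor and its targets. Over all measured genes, 6.93% were at least 2-fold higher and 8.59% lower. Of 7 Schwann cell markers 4 were at least 2-fold lower in the denervated pool (median -1.38), with the myelin gene Pmp22 at -1.55 ± 0.20 and S100b at -0.043. With spike-in scaling 3 of these 7 were 2-fold lower. All 7 endothelial markers lay below 0 (median -0.56, or -0.16 with spike-in scaling), with 1 of 7 above 0 there, and the receptor genes Kdr at -1.12 ± 0.20 and Flt1 at -0.73 ± 0.20. Of 8 fibroblast markers, 1 was 2-fold higher, Lum (1.03 ± 0.20), and 1 lower, Clec3b (-1.04 ± 0.20), around a median of 0.12. With spike-in scaling 2 of the 8 were 2-fold higher and none lower (median 0.52). The 5 measured satellite cell markers had a median of -0.34, with Pax7 at -0.80 ± 0.22 and Cdh15 at 0.89 ± 0.20. Of 7 neutrophil markers on the array, S100a9 (1.37 ± 0.21) and Mpo (-0.20 ± 0.28) were measured. Csf3r, Elane, Ngp and Camp were not well above background on either array. S100a8 was above background in the denervated pool only, at 7.04. That was 301-fold over a control reading of 0.023, which was itself not well above background. The 5 measured T and B cell markers were dim (median -0.46). The median of the 10 muscle fibre markers was -0.37, or 0.03 with spike-in scaling.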
